A study of Mus musculus with 9 samples.

Results

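The comparison described here set the atrial small RNA of 18-month-old mice that had received curcumin against that of untreated mice of the same age. Curcumin, a polyphenol of turmeric, was given daily at 100 mg/kg in non-fat skim milk between 12 and 18 months of age. The labels do not say whether the untreated mice received the milk. The members were chosen by group label: 3 libraries of old, untreated mice (the old group) and 3 libraries of old, curcumin-treated mice (the curcumin group), 6 of the 9 libraries of the series. All mice were C57BL/6, and the tissue was the atrial appendage. The other 3 libraries came from untreated mice of 5 months. They entered the fits for their share of the estimate of spread, and their values are given in places for reference. The labels do not say whether a library held 1 animal or a pool. The p-values therefore measure the spread between these libraries, which may be technical.

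PANDORA-seq, the method used, treats RNA with AlkB, an enzyme that removes methyl groups which stop reverse transcription, and with a polynucleotide kinase, which repairs RNA ends so that adapters can be ligated. Fragments of tRNA (tsRNAs), which carry many modified bases, are thereby read alongside microRNAs (miRNAs). A tRNA is transcribed with extra sequence at both ends, trimmed, and given the letters CCA at its 3′ end by a dedicated enzyme, and the amino acid is loaded onto that CCA. A fragment that holds an added CCA was therefore cut from a tRNA that had passed this step. A 5′ fragment starts at the first base of the tRNA. Mitochondria carry their own set of tRNA genes, which read the mitochondrial messages for the respiratory chain. miRNAs guide the silencing of messenger RNAs that match bases 2 to 8 of the miRNA, the seed. In heart muscle, miR-1 and miR-133 are the best known.

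In the deposited tables, the reads of each tRNA species fall into 5′ ends, 3′ ends without CCA, CCA ends and the remainder, called the other part below. The mitochondrial tRNAs whose parts lay furthest apart between the groups are shown as genes, 5′ to 3′, with letters that match the anticodon in capitals. In mt-Ser-GCT these letters occurred 2 times in the stretch searched. The capitals there mark the later match, picked only by its position along the gene, and the anticodon may be the earlier one. All lie on the mitochondrial chromosome. The sequences are those of GENCODE M21 on GRCm38.
mt-Tyr-GTA (gene mt-Ty, chrM:5260-5326, minus strand): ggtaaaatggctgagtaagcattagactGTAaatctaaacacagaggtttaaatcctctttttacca
mt-Glu-TTC (gene mt-Te, chrM:14071-14139, minus strand): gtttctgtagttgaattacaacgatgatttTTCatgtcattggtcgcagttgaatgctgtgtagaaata
mt-Asn-GTT (gene mt-Tn, chrM:5089-5159, minus strand): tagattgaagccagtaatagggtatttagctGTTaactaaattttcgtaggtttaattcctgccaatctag
mt-Leu-TAG (gene mt-Tl2, chrM:11671-11741, plus strand): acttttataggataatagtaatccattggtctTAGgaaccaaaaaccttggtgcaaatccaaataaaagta
mt-Ser-GCT (gene mt-Ts2, chrM:11613-11671, plus strand): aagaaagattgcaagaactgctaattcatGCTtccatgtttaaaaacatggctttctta
The gene mt-Ty was the 1 of the 22 mitochondrial tRNA genes whose own sequence ended in the letters CCA. A fragment of mt-Tyr-GTA that ends in CCA need therefore not have passed the step that adds it. Of the reads counted as mitochondrial CCA ends, 12.4% matched the genome, against 99.996% of the mitochondrial 5′ ends.

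The miRNAs on which the results below turn are shown as mature RNAs from RefSeq (GRCm38.p6), with the seed in capitals. For miR-148a and miR-152 the seed is the same, CAGUGCA. The seeds of miR-101a and miR-101b are offset by 1 base.
mmu-miR-148a-3p: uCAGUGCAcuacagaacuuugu
mmu-miR-152-3p: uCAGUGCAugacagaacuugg
mmu-miR-101a-3p: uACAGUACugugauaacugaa
mmu-miR-101b-3p: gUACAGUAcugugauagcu
mmu-miR-146a-5p: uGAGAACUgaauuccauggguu
mmu-miR-191-5p: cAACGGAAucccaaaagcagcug
mmu-miR-3535: uGGAUAUGaugacugauuaccugaga

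Clean reads ranged from 14278019 to 17509092 in the 6 libraries of 18 months, of which 83.7% to 87.3% fell in annotated features. The libraries numbered 1 stood apart in each group. The genome matched 72.2% of the clean reads of old library 1 and 72.7% of those of curcumin library 1, against 65.5% to 68.3% in the other 4. The libraries numbered 1 also held the most nuclear tRNA, 22.6% of clean reads in the old group and 25.1% in the curcumin group, against 11.3% to 15.2% in the other 4. Results that rest on these libraries are given with and without them. Without the 3 libraries numbered 1, 2 libraries per group remain, and that choice was made with earlier results in view.

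Both RNA classes at the centre of the method made up more of the curcumin libraries on average, with overlapping groups. miRNAs took 3.32%, 1.23% and 2.37% of clean reads in the old libraries 1 to 3 and 3.21%, 4.22% and 3.53% in the curcumin libraries. Old library 2 was the lowest, and curcumin library 1 lay just under old library 1. The means were 2.30% ± 1.05 (SD, n = 3) and 3.65% ± 0.520 (SD, n = 3), a difference of 1.35 percentage points (exact two-sided permutation test, p = 0.2, adjusted p = 0.923 over 15 shares). Without old library 2 the difference was 0.808 points. tsRNAs took 30.0%, 21.2% and 18.3% of the old libraries and 33.9%, 23.4% and 21.2% of the curcumin libraries (exact permutation p = 0.5). Each curcumin library exceeded the old library of the same number, although the numbers were not taken to pair the groups. Libraries within a group differed by more than the group means did. The mean difference of 3.03 points was 6.45 points without old library 1 and 0.609 without old library 3, and it reversed to -0.831 without curcumin library 1. With 3 libraries against 3, the smallest p that this test can give is 0.1.

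The summed 5′ and CCA ends of mitochondrial tRNAs went different ways on average. Mitochondrial 5′ ends took 3.02%, 1.87% and 2.20% of the old libraries and 3.80%, 3.87% and 2.96% of the curcumin libraries, a difference of 1.18 percentage points (exact permutation p = 0.2). The lowest curcumin library lay just under the highest old library. Within each library number the curcumin library was higher, by 0.776, 2.00 and 0.752 points, but the numbers were not taken to pair the groups. Most of the mean difference of 1.18 points came from 1 species, mt-Ser-GCT, which had 157994 to 488279 reads per library. Its 5′ end held 93.9% to 94.6% of the species in the old libraries and 94.3% to 94.8% in the curcumin libraries. The difference in the class share was therefore mainly one in the amount of that species. Mitochondrial CCA ends took 1.56%, 1.72% and 2.06% of the old libraries and 1.28%, 1.99% and 1.45% of the curcumin libraries (exact permutation p = 0.4). The mean was lower by 0.208 points and the groups overlapped. Only lincRNA, reads from long intergenic non-coding RNA, had groups that did not overlap among the 15 shares: 0.316%, 0.320% and 0.365% in the old libraries against 0.253%, 0.273% and 0.267% (exact permutation p = 0.1, adjusted p = 0.923). The 95% Wilson interval of any of these shares was at most 0.0256 points to either side, for counting error only.

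**Figure D1:**
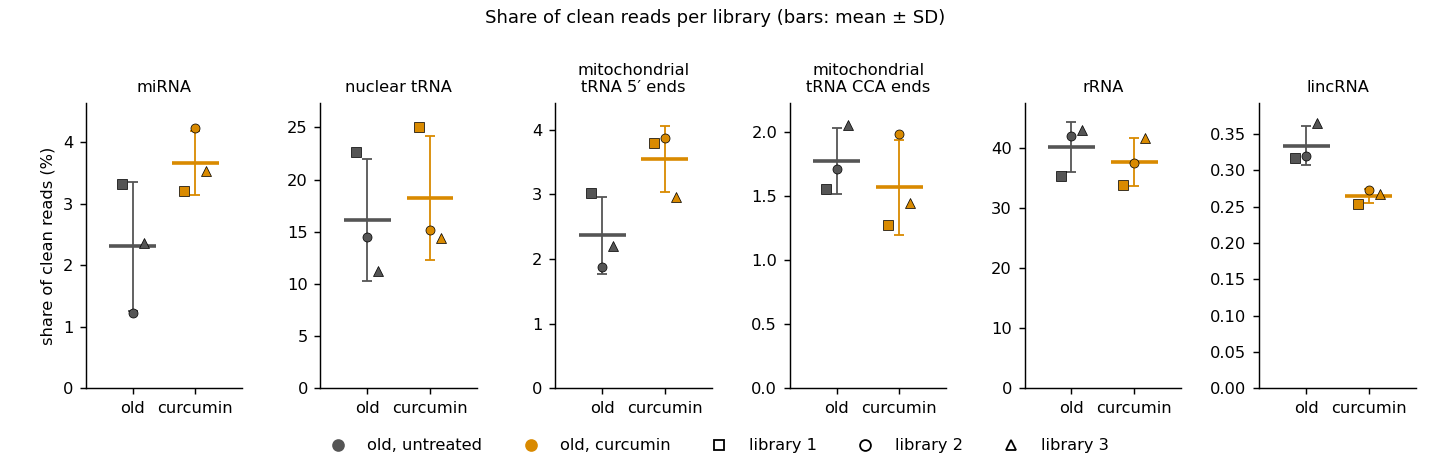
Share of clean reads (%, vertical axes) of 6 RNA classes in the old and curcumin libraries. Points are libraries, shaped by library number, and bars are the mean ± SD of 3 libraries; the groups overlap in every panel but lincRNA, and squares (libraries numbered 1) are the highest in nuclear tRNA.

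No single small RNA passed the test. In edgeR's quasi-likelihood fit of all 9 libraries, 0 of 520 features (0%) had an adjusted p under 0.05 in curcumin against old, and 21 (4.04%) had an unadjusted p under 0.05. DESeq2 and limma-voom also called 0, with 29 and 21 features at an unadjusted p under 0.05. Scaling each class alone gave 0 of 530, with 34 (6.42%) at an unadjusted p under 0.05. The smallest adjusted p was 0.525 with all classes together, 0.436 for miRNAs alone and 0.183 for tsRNAs alone. The groups did not overlap for 67 of 520 features (12.9%), 32 of them higher (6.15%) and 35 lower (6.73%) in the curcumin libraries. This balance depended on the scaling: with clean-read totals, 55 of the 520 were higher (10.6%) and 11 lower (2.12%).

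The direction of a class depended on what it was scaled to. With all classes together, 161 of 209 miRNAs (77%) were fitted higher in the curcumin libraries, with a median log2 difference of 0.25. Of the miRNAs tested with miRNAs scaled alone, 45.9% were fitted higher, with a median of -0.04. The tsRNAs moved the other way, from 131 of 277 higher (47.3%, median -0.02) to 166 of 277 (59.9%, median 0.08). The other classes (rRNA, Y RNA and the Ensembl, Rfam and piRNA classes) went from 2 of 34 higher (5.88%, median -0.33) to 15 of 35 (42.9%, median -0.02). Scaling to clean-read totals raised the median difference of all features by 0.24 relative to the scaling used. The sign was the same together and alone for 145 of 208 miRNAs and 235 of 276 tsRNAs. Levels below are therefore CPM (reads relative to the scaled library total) on the common scale, with the difference for the class alone beside them. Within-species shares of tRNA parts need no such scaling.

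Of the 22 mitochondrial 5′ ends, 12 were fitted higher and 10 lower on the common scale (median log2 difference 0.12). With tsRNAs alone, 17 were higher (median 0.21). Without the libraries numbered 1, 8 of 22 were higher together (median -0.26) and 13 alone (median 0.13). On the common scale, every curcumin library was higher for 3 of the 22 and lower for 1. Over all tsRNAs, 4.33% and 5.78% separated in these directions. The 5′ end of mt-Glu-TTC, the tRNA for glutamate, had the smallest p of all features. Its level was 257, 403 and 539 CPM in the old libraries and 1122, 1079 and 767 CPM in the curcumin libraries. Every curcumin library was higher than every old library. The log2 difference was 1.31 (SE 0.326; edgeR adjusted p = 0.525), and 1.42 (SE 0.322; edgeR adjusted p = 0.183) with tsRNAs alone. In the young libraries the level was 839, 894 and 548 CPM. The 5′ end of mt-Tyr-GTA, the tRNA for tyrosine, was at 99.6, 95.02 and 93.3 CPM in the old libraries, which lay close together, and at 294, 189.9 and 119 CPM in the curcumin libraries, which did not. Its log2 difference was 1.07 (SE 0.356; edgeR adjusted p = 0.896). The 5′ end of mt-Met-CAT, the tRNA for methionine, was the other mitochondrial 5′ end with all curcumin libraries higher on the common scale. Its level was 261, 224 and 217 CPM against 364, 335 and 307 CPM. It was singled out after its values were seen.

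CCA ends of mitochondrial tRNAs lay lower in the curcumin libraries for 17 of 22 species with all classes together (median log2 difference -0.37) and for 16 of 22 with tsRNAs alone (median -0.26). The median over all 277 tsRNAs was -0.02 and 0.08 under the same scalings. With the libraries numbered 1 left out, 16 of 22 were lower together (median -0.32), but with tsRNAs alone the direction turned, with 12 of 22 higher (median 0.07). For 8 of the 22 on the common scale and 6 with tsRNAs alone, every curcumin library was lower than every old library, and for 0 it was higher. Over all tsRNAs, 5.78% and 7.22% separated in that direction under the same scalings. The CCA end of mt-Leu-TAG, a leucine tRNA, was at 3444, 5713 and 5325 CPM in the old libraries and at 1921, 2474 and 2559 CPM in the curcumin libraries, a log2 difference of -1.06 (SE 0.273; edgeR adjusted p = 0.525). The CCA end of mt-Glu-TTC was at 2210.4, 3559 and 3321 CPM against 1552, 1488 and 1627 CPM, a log2 difference of -0.96 (SE 0.252). The old libraries varied among themselves more than the curcumin libraries did, and old library 1 was the lowest of the old in both. The CCA end of mt-Thr-TGT, the tRNA for threonine, was at 392, 488 and 567 CPM against 290.5, 254 and 274 CPM, a log2 difference of -0.82 (SE 0.222). That of mt-His-GTG, the tRNA for histidine, was at 199, 280.0 and 313 CPM against 139.9, 169.8 and 135 CPM, a log2 difference of -0.83 (SE 0.259). Counting genome-matched reads alone gave log2 differences of 0.08 for mt-Thr-TGT and 0.22 for mt-His-GTG CCA ends, the opposite sign, and removed nearly all of their reads (1.84% and 3.74% matched the genome).

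The CCA end of mt-Pro-TGG, the tRNA for proline, had the widest gap of the mitochondrial CCA ends and the widest spread. It was at 256, 1316 and 619.8 CPM in the old libraries and at 165, 235 and 229 CPM in the curcumin libraries, a log2 difference of -1.80 (SE 0.694; edgeR adjusted p = 0.917). Old library 1 lay just above the curcumin libraries and old library 2 far above them. Its 5′ end was also lower on average, at 470.5, 3055 and 1933 CPM against 846, 694 and 953 CPM, with overlapping groups. For mt-Pro-TGG, both ends were therefore lower on average in the curcumin libraries, unlike for mt-Glu-TTC and mt-Tyr-GTA, where the 5′ end was higher and the CCA end lower.

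The share of a part within its own species set these ends against each other in the same library. In mt-Tyr-GTA the CCA end held 39.7%, 38.0% and 51.2% of the species' reads in the old libraries and 18.8%, 20.4% and 21.6% in the curcumin libraries. The 3 curcumin values lay close together, and the groups were far apart. The log2 odds of the CCA end were lower by 1.56, a difference of -1.56 (SE 0.282; limma adjusted p = 0.106). The 5′ end of the same tRNA held 28.1%, 32.8% and 24.3% against 54.9%, 48.6% and 43.0%, a log2 odds difference of 1.28 (SE 0.288; limma adjusted p = 0.235). In the young libraries the CCA end held 36.1%, 33.7% and 34.0% and the 5′ end 39.1%, 42.7% and 39.7%, between the 2 groups of 18 months for both ends. Since the parts of a species sum to its total, a larger share of 1 end makes the others smaller. With genome-matched reads alone, the CCA difference was -0.72 and the 5′ difference 0.52. Species totals for mt-Tyr-GTA ranged from 3413 to 9063 reads per library.

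None of the 272 parts tested passed (0%), and 14 (5.15%) had an unadjusted p under 0.05. The groups did not overlap for 20 of 272 parts (7.35%), for 14 of the 88 mitochondrial parts (15.9%) and for 6 of the 184 nuclear parts (3.26%). The 5′ end of mt-Glu-TTC held 2.56%, 3.61% and 6.48% of its species in the old libraries and 8.90%, 17.2% and 9.78% in the curcumin libraries, a log2 odds difference of 1.67 (SE 0.477; limma adjusted p = 0.376). Curcumin library 2 stood out as the highest. The CCA end of this tRNA went the other way, from 22.01%, 31.9% and 40.0% to 12.3%, 23.8% and 20.7%, with overlapping groups. In mt-Asn-GTT, the tRNA for asparagine, the other part held 91.8%, 89.2% and 87.5% against 83.3%, 75.2% and 78.3%, a log2 odds difference of -1.19 (SE 0.313; limma adjusted p = 0.298). Its 5′ end held 3.04%, 8.41% and 9.76% against 11.3%, 14.1% and 15.0%. Here the CCA end was not lower: it held 4.68%, 2.31% and 2.75% against 4.00%, 9.88% and 6.29%. In mt-Ser-GCT, a serine tRNA that lacks the D arm, the CCA end was a trace of 0.237%, 0.304% and 0.588% against 0.162%, 0.0840% and 0.0888%, a log2 odds difference of -1.72 (SE 0.434; limma adjusted p = 0.298), while the 5′ end held about the same share, 93.9% to 94.6% in the old and 94.3% to 94.8% in the curcumin libraries.

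**Figure D2:**
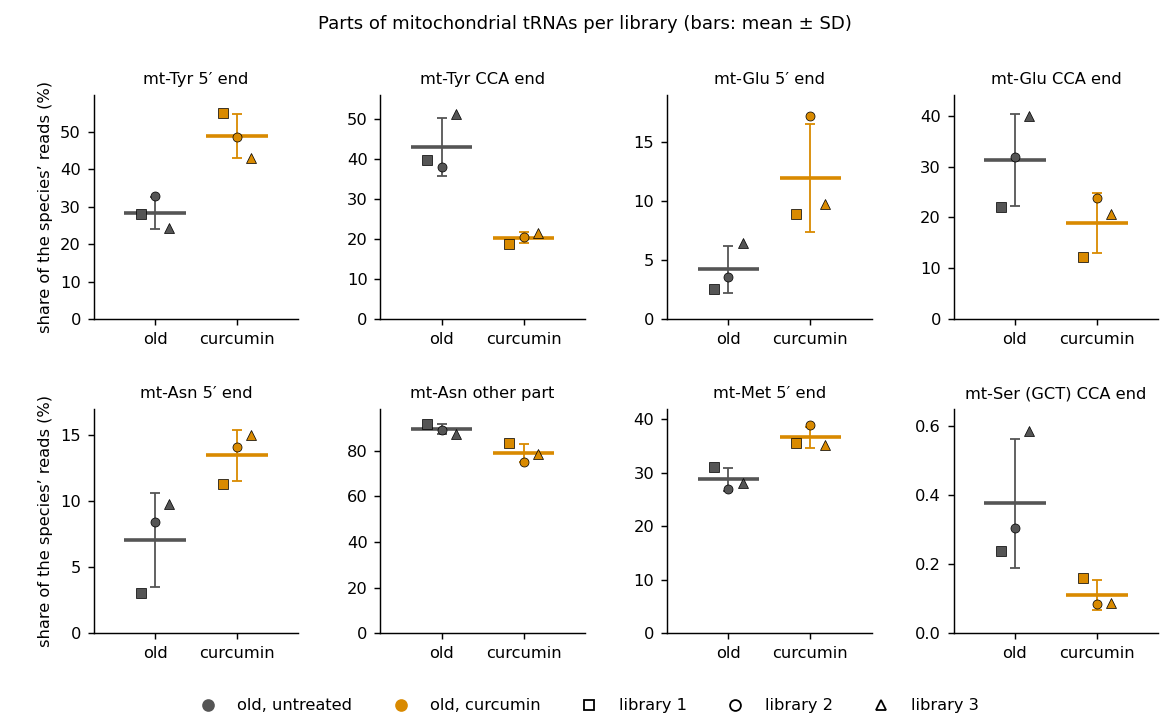
Share of a tRNA species' reads (%, vertical axes) held by 8 parts of mitochondrial tRNAs in the old and curcumin libraries. Points are libraries, shaped by library number, and bars are the mean ± SD of 3 libraries; the groups do not overlap except for the mt-Glu CCA end, and none of the parts passed the test.

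Across the 22 mitochondrial species, the odds of the 5′ end were fitted higher for 19 (median log2 difference 0.38) and those of the CCA end lower for 15 (median -0.32). The groups did not overlap for 6 of the 5′ ends, all higher (27.3%), and for 5 of the CCA ends, all lower (22.7%). The 6 were those of tyrosine, glutamate, asparagine, methionine, arginine and glutamine tRNAs, and the 5 those of tyrosine, serine (GCT), threonine, alanine and proline tRNAs, named after their values were seen. The 3′ ends without CCA were split, 13 higher and 9 lower (median 0.25), and the other parts 12 higher and 10 lower (median 0.01). Old library 1 stood apart from old libraries 2 and 3 in several of these shares. In mt-Arg-TCG the 5′ end held 26.8% in old library 1, 50.6% and 49.1% in old libraries 2 and 3, and 51.5%, 56.0% and 51.2% in the curcumin libraries. Without the libraries numbered 1, the 5′ odds were higher for 14 of 22 (median 0.13) and the CCA odds lower for 13 of 22 (median -0.20).

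Without the libraries numbered 1, 10 of 272 parts (3.68%) passed in limma's fit. Among them were the CCA end of mt-Tyr-GTA (log2 odds difference -1.59; limma adjusted p = 0.0239), the CCA end of mt-Ser-GCT (-2.30; limma adjusted p = 0.0103), and 3 parts of mt-Asn-GTT. In mt-Asn-GTT the other part fell (-1.20; limma adjusted p = 0.0416) while the CCA end (1.73; limma adjusted p = 0.0239) and the 3′ end without CCA (3.75; limma adjusted p = 0.0122) rose. Over all libraries that 3′ end overlapped between the groups and was a trace of its species, which had 4324 to 13251 reads per library. It held 0.453%, 0.0713% and 0.0226% in the old libraries and 1.44%, 0.827% and 0.416% in the curcumin libraries. The remaining 5 parts that passed were nuclear: the 5′ end of Arg-CCT, the other part of Ile-AAT and the CCA ends of the 3 proline species. The 5′ ends of mt-Tyr-GTA and mt-Glu-TTC did not pass in that fit (limma adjusted p = 0.0685 and 0.0736).

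**Figure D3:**
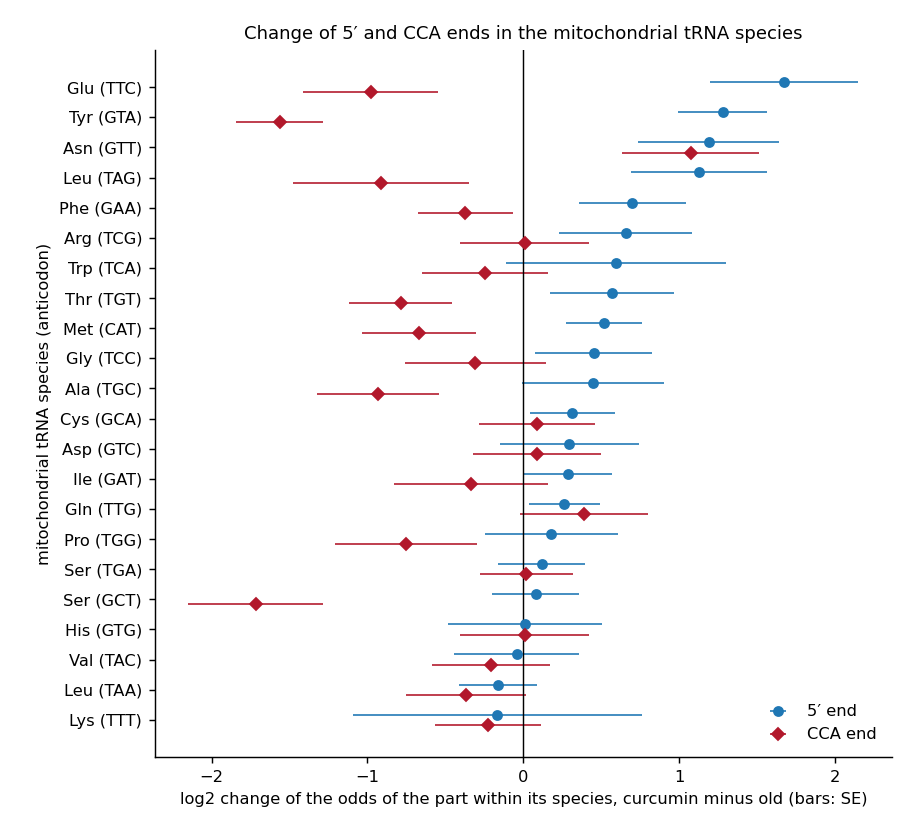
Fitted log2 change of the odds of the 5′ end (circles) and the CCA end (diamonds) within each of the 22 mitochondrial tRNA species, curcumin minus old, with SE bars. Circles lie to the right of 0 for 19 species and diamonds to the left for 15, and no value passed the test.

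Nuclear tRNAs gave most tsRNA reads, and the largest of them did not separate the groups. For nuclear tRNA-Gly-GCC, the glycine tRNA whose fragments lead many tsRNA libraries, the other part was at 208612, 149131 and 100643 CPM in the old libraries and at 204459, 113492 and 132770 CPM in the curcumin libraries, a log2 difference of -0.02 (SE 0.309; edgeR adjusted p = 0.988). Libraries numbered 1 were the highest in both groups. In nuclear tRNA-His-GTG the 5′ end was at 228, 268 and 231 CPM against 139.5, 102 and 143 CPM, a log2 difference of -0.92 (SE 0.266; edgeR adjusted p = 0.547), with every curcumin library lower. None of the reads of this 5′ end matched the genome (0%). Histidine tRNA is the one to which a guanosine absent from the gene is added at the 5′ end. In nuclear tRNA-Lys-TTT the 5′ end was at 278, 309 and 316 CPM against 476, 546 and 399 CPM, a log2 difference of 0.65 (SE 0.258; edgeR adjusted p = 0.917), with every curcumin library higher. It was singled out after its values were seen. The CCA end of nuclear tRNA-Asp-GTC, the tRNA for aspartate, was at 46.7, 117 and 112 CPM against 50.3, 38.5 and 40.7 CPM, and old library 1 fell among the curcumin libraries.

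By end, 29 of 48 nuclear 5′ ends were fitted higher on the common scale (median 0.11) and 37 of 48 with tsRNAs alone (median 0.22). For 8 of the 48 every curcumin library was higher, and for 6 every one was lower. For comparison, 12 and 16 of all 277 tsRNAs (4.33% and 5.78%) separated in these directions. Besides Lys-TTT, the 8 held the 5′ ends of Asn-GTT, Gly-ACC, Met-CAT and Tyr-GTA, and the 6 held those of both glutamate tRNAs besides His-GTG, all named after their values were seen. Nuclear CCA ends were lower for 40 of 49 on the common scale (median -0.38) and for 32 of 49 alone (median -0.16), with 0 and 1 separated. Nuclear 3′ ends without CCA were higher for 31 of 38 (median 0.51). Their summed level was 787 CPM in curcumin library 1 and 107 to 362 CPM in the other 5 libraries, and without the libraries numbered 1 the direction turned, to 3 of 38 higher (median -0.79). Within species, the odds of the 5′ end were higher for 32 of 48 (median 0.13; 37 of 48, median 0.31, without the libraries numbered 1), and those of the CCA end lower for 37 of 49 (median -0.21; 39 of 49, median -0.22). In tRNA-Val-TAC, the tRNA for valine, the 5′ end held 50.0%, 35.3% and 43.3% of the species against 57.5%, 61.3% and 50.9%, a log2 odds difference of 0.80 (SE 0.304; limma adjusted p = 0.822).

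By amino acid, parts of lysine tRNAs were fitted higher and parts of proline, glutamate, aspartate and histidine tRNAs mostly lower under both scalings. The amino acids given here were named after their values were seen, and none of their parts passed in the fit of all libraries. All 8 parts of lysine tRNAs were fitted higher under both scalings (median 0.38 together and 0.45 alone), and 2 of the 8 had groups that did not overlap on the common scale. Of the 8, 5 were higher together (median 0.10) and 6 alone (median 0.50) without the libraries numbered 1. Glutamine tRNAs were higher for 7 of 8 parts together (median 0.38) and 8 of 8 alone (median 0.51), but without the libraries numbered 1 for 2 of 8 together (median -0.24) and 6 of 8 alone (median 0.19). All 11 parts of proline tRNAs were fitted lower together (median -0.62) and 9 of 11 alone (median -0.42), with no part separated. The proline species share reads, so that their parts are not independent. Glutamate tRNAs were lower for 7 of 8 parts under both scalings (median -0.47 and -0.38), with both 5′ ends separated. That of Glu-CTC was at 181, 273 and 221 CPM against 179, 126 and 141 CPM. Aspartate and histidine tRNAs were lower for 3 of 4 parts each. For the initiator methionine tRNA, which starts protein synthesis, 3 of 4 parts were higher together (median 0.53) and 4 of 4 alone (median 0.71). Without the libraries numbered 1, 3 of 4 were higher under both scalings (median 0.33 together and 0.77 alone). Proline, glutamate, aspartate and histidine tRNAs stayed mostly lower there, with medians alone of -0.34, -0.43, -0.84 and -0.45. The median over all tsRNAs in that fit was -0.01.

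The rRNAs, Y RNAs and other annotated classes lay lower on the common scale and near 0 alone. Of 8 rRNAs, 7 were lower together (median -0.29) and 4 of 8 alone (median 0.02). The 1 rRNA that was higher together was 45S, the precursor from which the 18S, 5.8S and 28S rRNAs are cut, at 26112, 19632 and 30685 CPM in the old libraries and 26604, 34555 and 34588 CPM in the curcumin libraries. Its log2 difference was 0.33 (SE 0.227) together and 0.62 (SE 0.205; edgeR adjusted p = 0.358) alone, and 1.04% of its reads matched the genome. Without the libraries numbered 1 it rose with these classes alone (log2 difference 0.87; edgeR adjusted p = 7.9e-05), but did not pass with all classes together (0.46; edgeR adjusted p = 0.152). 28S, part of the large ribosomal subunit, was at 187110.0, 266209 and 223392 CPM against 139774, 147428 and 216919 CPM, with log2 differences of -0.42 together and -0.12 alone. The mitochondrial 16S was at 24654, 30038 and 33907 CPM against 20051, 25099 and 30192 CPM. RNY1, a Y RNA bound by the Ro protein, was at 1055, 1084 and 905 CPM against 845, 837 and 796 CPM, with log2 differences of -0.30 (SE 0.211) together and -0.01 alone. Of these 34 classes, 11 had all curcumin libraries lower on the common scale (32.4%), and 1 of 35 with these classes scaled alone (2.86%).

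The miRNAs that reached the smallest p with miRNAs scaled alone were miR-3535, miR-146a and miR-143 (edgeR adjusted p = 0.436 for each). Levels are given as CPM of miRNA reads. miR-146a, which dampens inflammatory signalling through the receptors of innate immunity, was at 2642, 2234 and 2352 in the old libraries and 3243, 3599 and 4328 in the curcumin libraries. The groups did not overlap. The log2 difference was 0.63 (SE 0.184) alone and 0.90 (SE 0.401) together. miR-143, an miRNA of smooth muscle, was at 13182.5, 8194 and 10433 against 16836, 16914 and 16362.5, which were nearly equal, with a log2 difference of 0.66 (SE 0.195) alone and 0.88 (SE 0.422) together. miR-145a, made from the same transcript, was at 4035, 3636 and 4356 against 3118, 3306 and 3299, with a log2 difference of -0.31 (SE 0.163) alone and -0.03 together. With miRNAs alone, the 2 products of this transcript thus lay on opposite sides of the old group.

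Of the miRNAs lower in the curcumin libraries, miR-3535 was at 5101, 5445 and 5745 against 4007, 2254 and 3266, a log2 difference of -0.77 (SE 0.221) alone and -0.50 (SE 0.324) together. Without the libraries numbered 1 it fell alone (-0.99; edgeR adjusted p = 0.00276) but did not pass together (-0.41; edgeR adjusted p = 0.339). Its precursor lies on chr1:86351981-86352127 (minus strand, GRCm38) within Ncl, the gene of nucleolin, and overlaps the snoRNA gene Gm24148 at chr1:86352008-86352087, so that reads of the miRNA and the snoRNA cannot be told apart there. miR-191 was at 16008, 25001 and 23020.3 against 12949, 12050.4 and 15623, with a log2 difference of -0.66 (SE 0.231; edgeR adjusted p = 0.651) alone and -0.30 together. Old library 1 was closest to the curcumin libraries. miR-1843b was at 261, 565 and 301 against 162, 131 and 209, a log2 difference of -1.16 (SE 0.389) alone. With miRNAs alone, 35 had groups that did not overlap (16.1%), 22 higher (10.1%) and 13 lower (5.96%).

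The family of miR-148a, miR-148b and miR-152 stood highest of the miRNA lists, and all 3 members lay higher in every curcumin library with miRNAs alone. miR-148a was at 8579.7, 2521 and 4673 in the old libraries and 13015.5, 10502 and 9562 in the curcumin libraries. miR-152 was at 2365, 1358 and 1860.25 against 2706, 3004 and 3021, and miR-148b at 234, 55.0 and 154 against 341, 331 and 283. Among the old libraries, number 1 was the highest and number 2 the lowest for each of them. The log2 differences were 1.07 (SE 0.442), 0.64 (SE 0.248) and 1.08 (SE 0.515) alone, each with an edgeR adjusted p of 0.651, and 1.19, 0.87 and 1.23 together. The median of the 3 was 1.07 alone, against -0.04 over all miRNAs. Leaving out the libraries numbered 1 removed the old value nearest the curcumin libraries for each member and left 2 libraries per group. In that fit all 3 passed both together and alone. There the log2 differences alone were 1.53, 0.95 and 1.56 (edgeR adjusted p = 0.000228, 0.00499 and 0.0154).

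**Figure D4:**
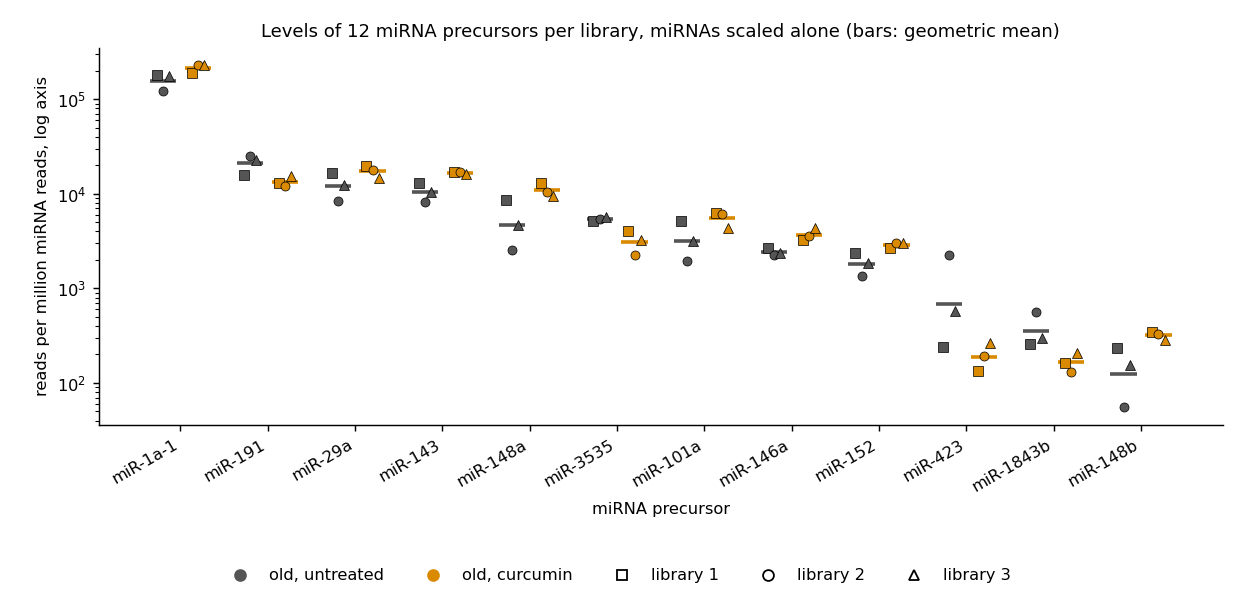
Levels of 12 miRNA precursors (CPM of miRNA reads, log axis) in the old and curcumin libraries with miRNAs scaled alone. Points are libraries, shaped by library number, and bars are geometric means; miR-143, miR-146a, miR-148a, miR-148b, miR-152 and miR-1a-1 lie higher and miR-191, miR-1843b and miR-3535 lower in all 3 curcumin libraries, and none passed the test.

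Muscle miRNAs made up more of the miRNA reads in the curcumin libraries. The 6 tested of the 10 listed loci summed to 256693 to 372474 CPM of miRNA reads in the old libraries and to 393187 to 476742 in the curcumin libraries. Most of this was miR-1a, whose locus miR-1a-1 was at 180374, 123086 and 174612 against 191418, 230276 and 230941, a log2 difference of 0.45 (SE 0.211; edgeR adjusted p = 0.651) alone and 0.70 (SE 0.439) together. Its second locus shares nearly all reads with it. All 6 loci were fitted higher together (median 0.57) and 5 of 6 alone (median 0.29). The exception alone was miR-208a, which sits in Myh6, the gene of the alpha myosin heavy chain, at 707, 781 and 612 against 521, 679.9 and 539, with a log2 difference of -0.27 alone and 0.04 together; it was named after its values were seen. In bulk tissue, a larger share of muscle miRNAs and a smaller share of miRNAs from other cells cannot be told apart.

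Markers of other cell types were present at lower levels. Endothelial loci, mostly miR-126a, summed to 214574 to 281876 CPM of miRNA reads in the old libraries and 244641 to 317925 in the curcumin libraries. They were higher for 7 of 7 together (median 0.33) and 5 of 7 alone (median 0.08). Leukocyte loci summed to 39543 to 43848 against 46496 to 50166. Without miR-29a, which the fibroblast list also holds, the sums were 26898 to 31426 against 29064 to 31772 and overlapped. Of these loci, 10 of 10 were higher together (median 0.44) but 5 of 10 alone (median 0.16). Fibroblast and fibrosis loci, which include the miR-29 family that restrains collagen genes, were higher for 11 of 12 together (median 0.42) and 9 of 13 alone (median 0.19). miR-29a was at 16761, 8441 and 12422 against 19686, 17705.5 and 14724. Red blood cell loci summed to 1264 to 2897 against 839 to 1594, and 2 of 4 were higher under both scalings (median 0.08 together and -0.39 alone). Epithelial, neuronal and liver loci each summed to under 1800 in every library. miR-124, the leading neuronal miRNA, had under 1 read over the 6 libraries at each locus. miR-122, the leading liver miRNA, had 14 to 56 reads per library. The part of cell composition in the miRNA results was not tested.

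Ageing and regulatory lists followed the scaling. Senescence and ageing loci were higher for 12 of 12 together (median 0.58) and 9 of 12 alone (median 0.28). Inflammation loci were higher for 7 of 7 together (median 0.70) and 4 of 8 alone (median 0.13). The let-7 family, regulators of growth and differentiation, were higher for 9 of 12 together (median 0.16) and lower for 9 of 12 alone (median -0.10). The miR-30 family was higher for 6 of 6 together (median 0.42) and 5 of 6 alone (median 0.17). The miR-26 and miR-101 families were higher for 6 of 6 together (median 0.62) and 5 of 6 alone (median 0.41). In the latter, miR-101a was at 5105, 1943 and 3160 (CPM of miRNA reads) in the old libraries and 6298, 6182 and 4303 in the curcumin libraries, with overlapping groups and a log2 difference of 0.72 (SE 0.465; edgeR adjusted p = 0.809). The Dlk1-Dio3 cluster, a large imprinted group of miRNAs of which 11 of 44 loci were tested, was higher for 7 of 11 together (median 0.23) and 5 of 11 alone (median -0.02).

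**Figure D5:**
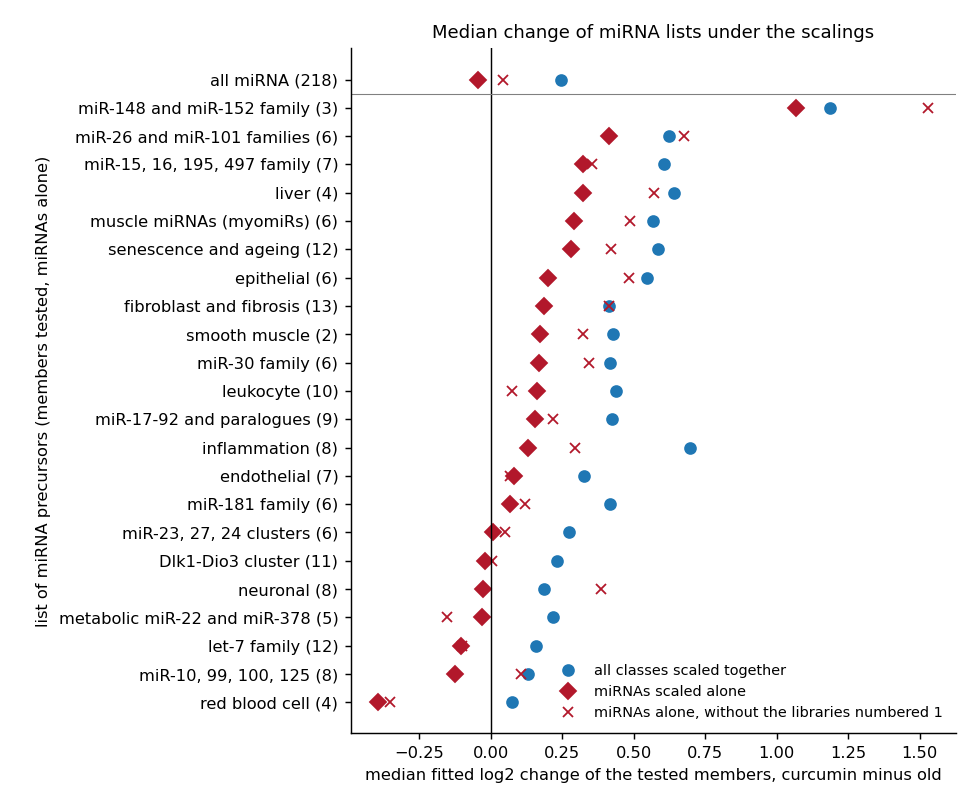
Median fitted log2 change (curcumin minus old) of the tested members of 22 miRNA lists and of all miRNAs, with all classes scaled together (circles), miRNAs alone (diamonds) and miRNAs alone without the libraries numbered 1 (crosses). Every circle lies to the right of its diamond; the miR-148 and miR-152 family lies furthest right and the red blood cell list is the furthest left with miRNAs alone.

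Without the 3 libraries numbered 1, 73 of 519 features (14.1%) passed in edgeR's fit of all classes together and 66 of 516 (12.8%) with each class alone. Those that passed in both, in the same direction, numbered 13 miRNAs, all higher, and 21 tsRNAs, of which 4 were higher and 17 lower. Among all miRNAs tested in these fits, 14.3% passed as higher and 0.476% as lower with all classes together, and 6.31% and 4.37% alone. Among all tsRNAs, 1.45% passed as higher and 13.1% as lower together, and 8.73% and 6.18% alone. Besides the miR-148 family, the miRNAs included miR-143 (log2 difference alone 0.88; edgeR adjusted p = 0.00276), miR-146a (0.82; edgeR adjusted p = 0.00789), miR-101a (1.09; edgeR adjusted p = 0.00487) and both loci of miR-1a. In the fit of all libraries, 1 of these 13 miRNAs had an unadjusted p under 0.05. The 4 tsRNAs that rose were mitochondrial: the 5′ end and the other part of mt-Ser-GCT, the 5′ end of mt-Glu-TTC and the 3′ end of mt-Asn-GTT. The mt-Asn-GTT 3′ end was a trace that held at most 0.453% of its species in the old libraries. The 5′ end of mt-Ser-GCT was at 11842 and 13378 CPM in old libraries 2 and 3 and 25814 and 23041 CPM in curcumin libraries 2 and 3, while libraries 1 were at 27291 and 26966.5 CPM. Of the 17 that fell, 11 were mitochondrial and 6 nuclear, the latter CCA and 3′ ends of aspartate, arginine and glutamate tRNAs. The other part of mt-His-GTG was at 5094, 14449 and 11179 CPM against 6741, 4007 and 5511 CPM, and old library 1 fell among the curcumin libraries.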

How the data were processed

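Small RNA of mouse atrial appendages was sequenced by PANDORA-seq after selection of 15 to 45 nucleotides on a gel, with 75 single-end cycles, per the labels' protocols. Adapters were trimmed with cutadapt 2.5 and the build was mm10, per the submitters' processing notes, while for the annotation tool a name is not given in the sources used here. Deposited values are expected counts per feature, made by the authors, which are fractional where reads fit several features and are not normalized. Genome-matched and unmatched rows were summed per feature, and tRNA ends were kept as parts of their tRNA. Clean reads per library were 12899427 to 19707803.

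Counts were rounded and fitted with edgeR 4.0.16 (R 4.3.3) by quasi-likelihood over the 9 libraries with group as the only term, TMM scaling and filterByExpr, which kept 520 of 996 features. P-values were adjusted by Benjamini-Hochberg over all features tested, with a threshold of 0.05. The same fit was run with miRNAs, tsRNAs and other classes each scaled alone. Shares of tRNA parts were tested with limma 3.58.1 on log2 odds (0.5 reads added) for 272 parts, and 15 class shares by exact permutation. DESeq2 1.42.0, limma-voom, clean-read totals, genome-matched reads, a filter at 1 CPM or none, leaving out libraries and a replicate block were alternatives. The scripts were tested on simulated counts with known changes. There the edgeR fit recovered 21.2% of log2 changes of 1, 69.7% of those of 2 and 92.5% of those of 3. The part-share fit recovered 26.7% of changes of 2 and 80% of those of 3. With nothing changed, both fits called 0. Real changes of such sizes can therefore be missed with 3 libraries per group. The features named were the 10 with the smallest p together, the 5 with the smallest p per class alone, the 10 most abundant miRNAs and tsRNAs, up to 3 most abundant members of each list, the 10 part shares with the smallest p, up to 6 per class and direction that passed without the libraries numbered 1, and all rRNAs, Y RNAs and other classes; those outside this rule were chosen after their values were seen. The groups compared, the members and the lists were chosen with earlier results of these data known.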

Additional observations from a re-analysis of the deposited data

How the results depend on the processing

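The number of features past the threshold was 0 when any single library was left out, under both scalings, but it was 73 with all classes together and 66 with each class alone without the 3 libraries numbered 1. With the replicate number as a block the count was 0 of 520 with all classes together, and 7 with each class alone (an alternative chosen after seeing the data). Deviations of same-numbered old and curcumin libraries correlated by 0.277, -0.0924 and 0.396, and those with the young libraries by 0.192 to 0.806. Since 1 old and curcumin pair was not above 0.1 and old library 3 correlated best with curcumin library 2 (0.541), the numbers were not taken to pair these groups. For part shares the count was 2 with the replicate block and 10 without the libraries numbered 1. The 2 were the CCA end of mt-Tyr-GTA (-1.56, limma adjusted p = 0.0215) and the 3′ end of mt-Asn-GTT (3.06, limma adjusted p = 0.00734). That 3′ end was a trace of its species, with overlapping groups. Of 89 named levels, 30 changed sign with the class scaled alone, 34 with the class alone without the libraries numbered 1, 16 without old library 2 and 13 with clean-read totals; each other setting changed 9 or fewer. With genome-matched reads alone, the log2 differences of the CCA ends of mt-Thr-TGT and mt-His-GTG turned to 0.0832 and 0.217. Among class shares, in percentage points, mitochondrial CCA ends turned to 0.125 and snRNA to -0.00474 with genome-matched reads, and nuclear CCA ends turned to -0.0366 and snRNA to -0.0667 without the libraries numbered 1. Leaving out 1 library at a time gave differences from -0.831 to 6.45 for tsRNA, -1.30 to 5.36 for nuclear tRNA, -0.0651 to 0.214 for nuclear 5′ ends, -0.0620 to 0.0572 for nuclear CCA ends, -0.00972 to 0.00319 for Y RNA, -0.580 to 1.80 for piRNA, -0.0491 to 0.0686 for snRNA, -0.0615 to 0.00982 for snoRNA and -0.0346 to 0.284 for mitochondrial rRNA. The cause of these changes was not tested. Counting error was small beside the spread between libraries, and intervals cover counting error only.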
